A study of Mus musculus with 14 samples.

Results

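The 38 genes described here act in mitosis, the stage in which a cell condenses its copied chromosomes, attaches them to a spindle and divides. They were taken by gene symbol from a list, and each gene was represented by its probe set with the highest mean over the 14 arrays. Of the 38, 36 had a probe set assigned to 1 gene symbol, out of 12393 such genes on the array. Ccnb1, a cyclin that activates Cdk1, and Cdca8, a chromosomal passenger protein, had none and are not analysed here. All 36 passed the filter on dim probe sets, which left 8598 genes, and all 36 exceeded the 40th percentile of the array on each of the 14 arrays. Their mean intensities lay between 124 and 2718 units. Probe sets differ in affinity, so levels are compared only within a gene.

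The study asked how deletion of Dnmt1, the methyltransferase that maintains DNA methylation through replication, alters gene expression in blood stem and progenitor cells. All mice carried floxed Dnmt1 alleles (Dnmt1fl/fl) on a C57BL/6 background, were 8 to 12 weeks old and were injected 7 times with 25 ug/kg poly(I)poly(C). Mx-Cre, the transgene that makes the Cre recombinase, was present in knockout mice and absent from controls. Marrow was collected 4 days after the final dose, that of 4 to 6 mice of a genotype was pooled per array, and 3 lineage-depleted populations were sorted. These were long-term hematopoietic stem cells (LT-HSCs, c-Kit+ Sca-1+ CD34-), multipotent progenitors (MPPs, c-Kit+ Sca-1+ CD34+) and myeloid progenitors (c-Kit+ Sca-1-). There were 2 arrays per genotype for LT-HSCs and for MPPs and 3 per genotype for myeloid progenitors. Control and knockout arrays of the same number within a population came from littermates, so there were 7 litter pairs. Each p-value therefore describes the spread between pools of mice. Poly(I)poly(C) induces interferon, to which the Mx promoter responds in many cell types. The controls therefore share the injections and the floxed alleles but not the transgene, and the deletion was not restricted to stem cells.

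Entry into mitosis is driven by Cdk1 with its A and B cyclins and by the Aurora and Polo kinases. The spindle checkpoint holds the anaphase promoting complex inactive until kinetochores are attached, after which cyclins and securin are degraded and the chromosomes part. Most of these genes are transcribed in G2 and M phase, through promoters that often carry the cell cycle genes homology region and CCAAT boxes, so their RNA is widely read as a sign of dividing cells. In unperturbed adult marrow LT-HSCs are known as largely quiescent, and MPPs and myeloid progenitors as cycling. In RNA of sorted bulk cells, fewer dividing cells and less RNA per cell cannot be told apart.

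Promoter sequences show the words these genes share. RefSeq promoters of build GRCm38.p6, which run from 250 bases before to 50 after the annotated start site, were found for 33 of the 38 genes. Aurkb, Ccna2, Incenp, Kif20a and Tpx2 had none in the table. The windows shown cover 120 bases before to 30 after the start site of 5 genes and are written along the gene's strand. Ckap2, Ttk, Cenpa and Ube2c are shown because the population and genotype comparisons turn on them, and Cdk1 because it is the kinase at the centre of mitosis and did not share their high LT-HSC control values. Capitals mark TTTGAA and TTTAAA, forms of the homology region, and CCAAT, the word bound by NF-Y, on either strand.
Ckap2: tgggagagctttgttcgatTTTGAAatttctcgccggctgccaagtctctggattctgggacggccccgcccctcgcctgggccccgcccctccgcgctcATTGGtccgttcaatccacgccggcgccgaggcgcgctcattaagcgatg
Ttk: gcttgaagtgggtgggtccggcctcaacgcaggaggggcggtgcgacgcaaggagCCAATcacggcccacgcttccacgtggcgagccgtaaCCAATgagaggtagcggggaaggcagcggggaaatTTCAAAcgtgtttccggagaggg
Cenpa: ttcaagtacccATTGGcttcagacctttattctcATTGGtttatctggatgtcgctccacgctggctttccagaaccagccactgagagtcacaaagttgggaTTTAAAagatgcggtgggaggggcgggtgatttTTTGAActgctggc
Ube2c: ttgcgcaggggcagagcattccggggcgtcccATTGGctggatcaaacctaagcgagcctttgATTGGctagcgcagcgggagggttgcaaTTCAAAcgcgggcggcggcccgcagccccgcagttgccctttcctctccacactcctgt
Cdk1: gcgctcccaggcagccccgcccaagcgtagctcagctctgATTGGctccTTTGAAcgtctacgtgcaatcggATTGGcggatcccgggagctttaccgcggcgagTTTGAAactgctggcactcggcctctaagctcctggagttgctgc
The windows lie at chr8:22185790-22185939 (minus strand) for Ckap2, chr9:83834569-83834718 (plus strand) for Ttk and chr5:30666766-30666915 (plus strand) for Cenpa. Those of Ube2c and Cdk1 lie at chr2:164769809-164769958 (plus strand) and chr10:69352883-69353032 (minus strand).

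TTTGAA began 101 bases before the start site in Ckap2 and 29 before it in Ube2c, and at base 8 after it in Ttk and base 17 in Cenpa. In Cdk1 it began 71 and 15 bases before the start site. Over the 33 genes, TTTGAA was found on either strand in 23 (69.7%), against 17.9% of all 32851 promoters of the table. CCAAT was found in 25 (75.8%, against 37.4%), and both words in 21 (63.6%, against 6.95%). TTTAAA, a palindrome, was in 9 (27.3%, against 13.2%). In 20 of the 23 genes the TTTGAA nearest to the start site began within 50 bases of it, with a range from 103 bases before to 41 after.

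Words bound by E2F factors, which serve replication genes, were rarer than TTTGAA and CCAAT in the promoters of the 33 genes. Any of TTTGGCGC, TTTCGCGC, TTCCCGCC and TTGGCGCC, of which the first and the last can overlap, was in 2 of the 33 genes (6.06%) and in 3.53% of all promoters. Of 20 DNA replication genes with a promoter in the table, 11 (55%) held an E2F word and 3 (15%) held TTTGAA. Among these 20, 13 (65%) held CCAAT, beside 75.8% of the 33 mitosis genes, so this word was not particular to mitosis genes. Of 39 further mitosis genes, 23 (59%) held TTTGAA, 28 (71.8%) held CCAAT and 8 (20.5%) held an E2F word. Mad2l1, Nuf2, Nusap1, Pttg1 and Tacc3 held none of the homology region and NF-Y words in this window. A match of letters is a description and not a binding site.

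**Figure D1:**
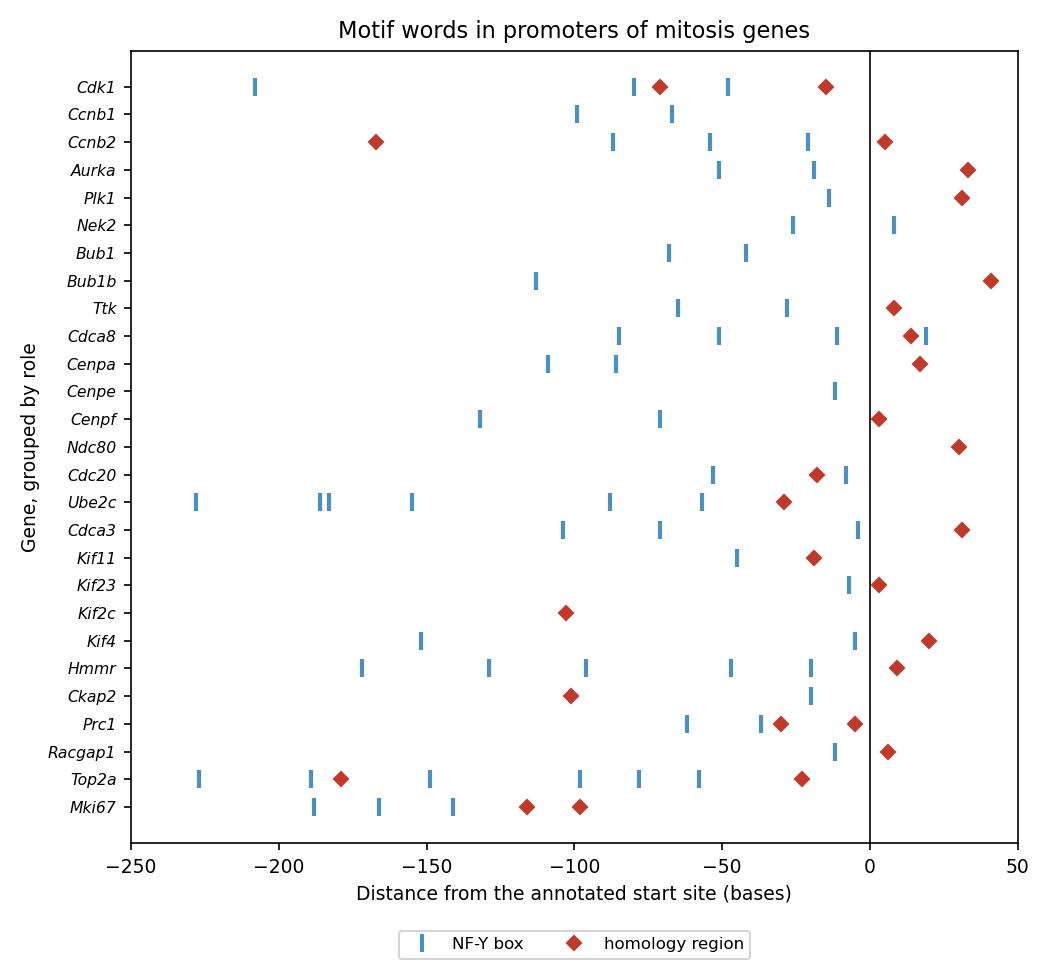
Distance in bases from the annotated start site (x axis) of each TTTGAA (red diamonds, homology region) and each CCAAT (blue bars, NF-Y box) in the RefSeq promoters of the mitosis genes that hold either word (y axis, by role; both promoters of Prc1 share a line). The diamonds nearest to the start site lie between 103 bases before and 41 after it, 20 of 23 within 50 bases.

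Dnmt1 was lower on knockout arrays, at 745 to 1305 units against 1328 to 2219 on control arrays. Its average difference of -0.63 ± 0.14 (SE) missed the threshold (limma, adjusted p = 0.187) and passed it with the litters as blocks (adjusted p = 0.0376). Since the floxed region is not described in the labels, the probe set may lie outside it. The sorted labels matched their markers in part. Cd34 was low in LT-HSCs (7.55 to 96.8 units) and high in MPPs (310.2 to 1021), and Mpo, a granule enzyme, ran from 170.4 to 758 in LT-HSCs and from 5359 to 6755 in myeloid progenitors. Of the 6 myeloid progenitor markers, 4 were lower and 2, Gata1 and Klf1, higher in control LT-HSCs than in control myeloid progenitors. Gata1 ran from 139 to 605 in LT-HSCs and from 147 to 369 in myeloid progenitors. Klf1 ran from 179 to 653 and from 172 to 360. Among markers of stem cells, Procr was at 59.3 and 232 units in control LT-HSCs against 749 and 251 in control MPPs, and at 429 and 182 against 407 and 94.5 in knockouts. Hlf was at 128 and 406 in control LT-HSCs against 1155 and 448 in control MPPs, and at 210 and 326 against 646 and 332 in knockouts. Meis1 was at 21.3 and 62.7 against 71.3 and 40.7 in controls. Slamf1 was at 13.02 and 119 in control LT-HSCs, around the 36.5 and 22.3 of control MPPs, and Mecom was dim everywhere (1.72 to 13.4 units). Of the 4 stem cell markers past the filter 3 were lower and 1 higher in control LT-HSCs than in control MPPs (median -0.98). Against control myeloid progenitors 4 were higher. The 7 measured of 8 B cell markers summed to 13082 and 6912 units on LT-HSC control arrays 1 and 2 and to 9698 and 6129 on knockout arrays 1 and 2. They summed to 140 to 2483 on MPP arrays and to 405 to 1072 on myeloid progenitor arrays. In control LT-HSCs 7 of the 7 were higher than in MPPs, 6 of them past the threshold. The ratio of 3' to 5' signal of Gapdh, a sign of RNA quality, was 5.44 and 5.15 on the arrays of LT-HSC litter 1, 3.07 and 2.46 on those of litter 2, 2.44 to 2.86 on MPP arrays and 2.25 to 5.27 on myeloid progenitor arrays. The same ratio of Actb had the opposite order in LT-HSCs, at 0.81 and 0.75 in litter 1 and 0.97 and 1.09 in litter 2. It was 0.83 to 1.1 on MPP arrays and 0.92 to 1.18 on myeloid progenitor arrays.

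Across the arrays the mitosis genes were highest on LT-HSC control array 1. Their median on the log2(intensity + 16) scale was 9.33 there, and 34 of 36 genes lay above their own 14-array median. It was 8.70 on LT-HSC control array 2, 8.80 and 8.43 on LT-HSC knockout arrays 1 and 2, and 8.26 to 8.68 on the MPP arrays. The myeloid progenitor arrays lay closest together, at 8.24 to 8.45. MPP control array 1 was the lowest MPP array, with 4 of 36 genes above their 14-array median, against 31 on MPP control array 2. The 4 LT-HSC arrays had the same order by mitosis genes as by summed B cell markers. By summed erythroid markers they had another order. These summed to 721 and 2471 units on LT-HSC control arrays 1 and 2 and to 1039 and 1814 on knockout arrays 1 and 2. On control arrays they summed to 98 and 175 in MPPs and to 1029 to 1566 in myeloid progenitors. The part of B cell or erythroid RNA in the mitosis signal was not tested.

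**Figure D2:**
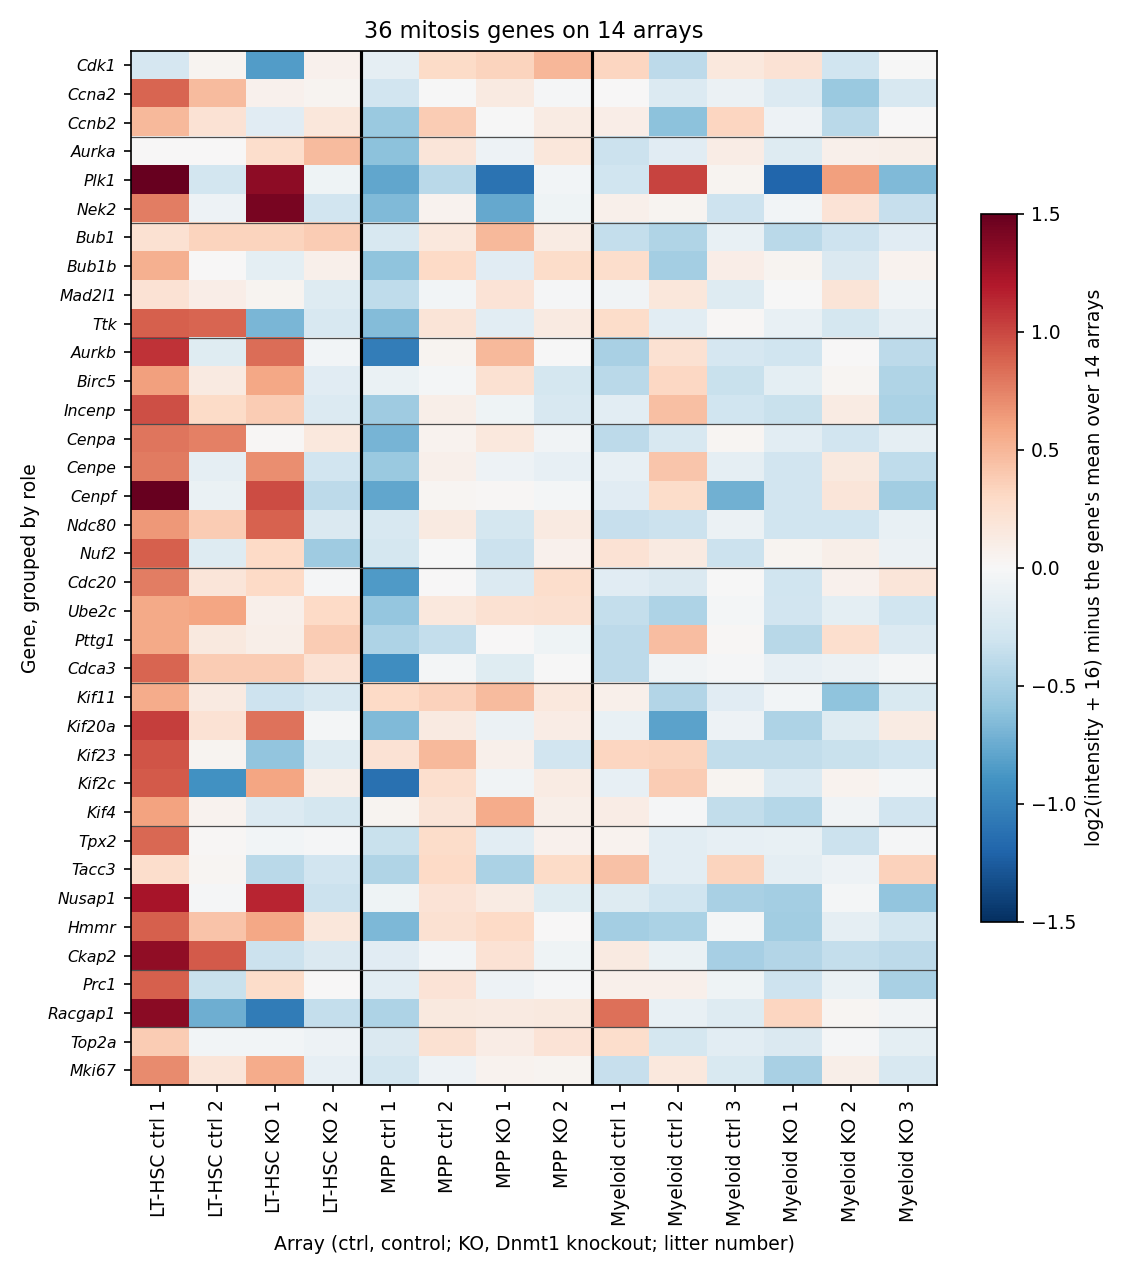
Level of 36 mitosis genes (y axis, grouped by role) on each of 14 arrays (x axis), as log2(intensity + 16) minus the gene's mean over the arrays, with the colour scale ending at 1.5 in either direction. LT-HSC control array 1 is red for nearly all genes (34 of 36 above their median), and MPP control array 1 is blue for most (4 of 36 above).

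**Figure D3:**
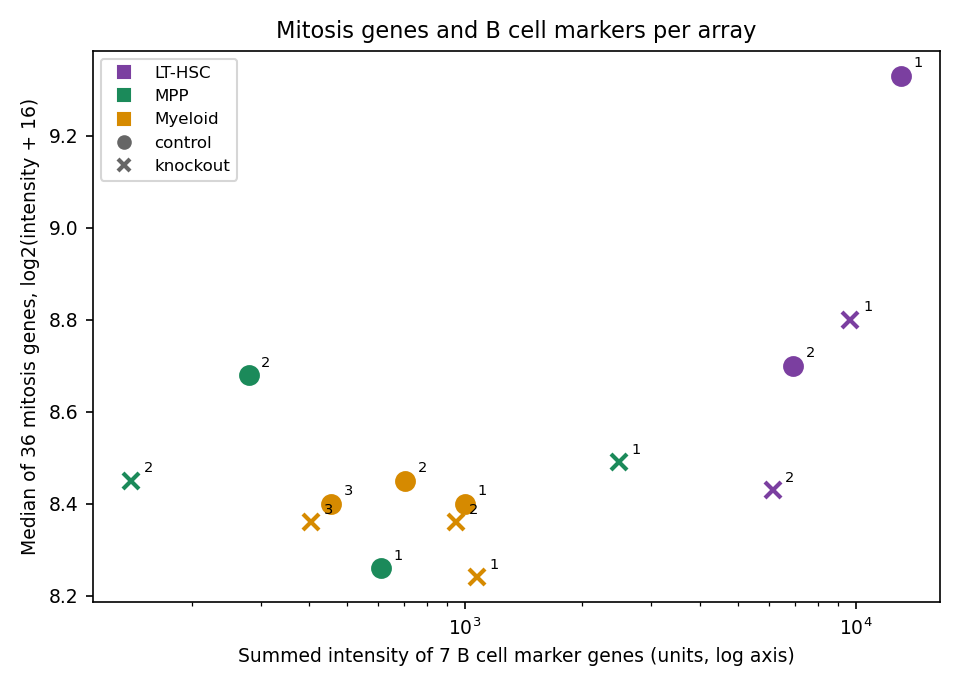
Median of the 36 mitosis genes (y axis, log2(intensity + 16)) against the summed intensity of 7 B cell marker genes (x axis, units, log axis) for each array, labelled by litter number; circles are control and crosses knockout arrays. LT-HSC control array 1 is highest on both axes (9.33 and 13082).

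Most mitosis genes gave a higher signal in control LT-HSCs than in control MPPs and control myeloid progenitors, and few of the differences passed the test. Against MPPs 35 of 36 genes were higher, with a median of 0.55 (log2) beside -0.02 for all genes tested. Only 1 gene, Ckap2, passed the threshold of an adjusted p of 0.05 (limma), where 2.34% of all genes passed in either direction. At an unadjusted p under 0.05, 12 were higher and 0 lower (15.4% of all genes in either direction). In 17 of 36 the 2 LT-HSC control arrays lay above both MPP control arrays, as in 19.3% of all genes. Against myeloid progenitors 33 of 36 were higher, with a median of 0.52 beside 0 for all genes. Ckap2, Ccna2, Ube2c and Cenpa passed (6.35% of all genes), and the unadjusted p was under 0.05 for 14 higher genes and 0 lower ones (20.0% of all genes in either direction). In 14 of 36 the groups did not overlap, as in 15.1% of all genes. The comparisons share the LT-HSC control arrays.

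LT-HSC control array 1 carried much of this difference. Without it the median against MPPs was 0.29 and that against myeloid progenitors 0.14, and no gene passed in either comparison (limma, 0 and 0). Without LT-HSC control array 2 the medians were 1.00 and 0.85, with 2 genes passing in each. Without MPP control array 2 the median against MPPs was 0.85, with 2 genes passing. Against MPPs 0 passed without MPP control array 1 or any 1 of the 3 myeloid progenitor knockout arrays. Against myeloid progenitors 1 passed without myeloid progenitor control array 1 or 2, and 2 without control array 3 or any 1 of the knockout arrays. With the litters as random blocks 0 genes passed against MPPs (14 at an unadjusted p under 0.05) and 2, Ckap2 and Ccna2, against myeloid progenitors. Of all 8598 genes 176 and 537 passed in that fit.

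Ckap2, a protein that binds spindle microtubules, had the smallest p of the 36 genes in both comparisons. Its intensity was 517 and 424 on the LT-HSC control arrays, 148 and 183 on the LT-HSC knockout arrays, 186 and 202 on the MPP control arrays and 236 and 193 on the MPP knockout arrays. Myeloid progenitors had Ckap2 231, 194 and 152 on control arrays and 139, 159 and 157 on knockout arrays. The 2 LT-HSC control arrays thus stood above the other 12, which did not exceed 236. Control LT-HSCs exceeded MPPs by 1.22 ± 0.28 (SE, n = 2 and 2, limma adjusted p = 0.0356; 2.34-fold). With the litters as blocks the adjusted p was 0.0572. The call was also lost without LT-HSC control array 1 (1.02, adjusted p = 0.224), MPP control array 1 or 2 (adjusted p = 0.193 and 0.0980) or myeloid progenitor knockout array 1, 2 or 3 (adjusted p = 0.0664, 0.0640 and 0.0673). Against myeloid progenitors the excess was 1.27 ± 0.25 (n = 2 and 3, adjusted p = 0.00810; 2.41-fold), and without LT-HSC control array 1 it was 1.06 (adjusted p = 0.0982).

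Ccna2, the A cyclin that works with Cdk1 at mitotic entry, had a similar order. It stood at 1627 and 1424 units in control LT-HSCs, 877 and 992 in knockout LT-HSCs, 804 and 946 in control MPPs and 1062 and 958 in knockout MPPs. Myeloid progenitors had Ccna2 1007, 809.9 and 957 in controls and 794, 627 and 850.1 in knockouts. Again the 2 LT-HSC control arrays were the highest of the 14. The excess over myeloid progenitors was 0.78 ± 0.19 (limma adjusted p = 0.0257), and over MPPs 0.82 ± 0.21 (adjusted p = 0.0592). The first call was lost without LT-HSC control array 1 (0.58, adjusted p = 0.246) or without any 1 myeloid progenitor control array (adjusted p = 0.0507, 0.0627 and 0.0719), and with the mean of its probe sets (0.61, adjusted p = 0.110), with arrays centred on the median (0.0587) or with no mean-variance trend (0.0537).

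Cenpa, the histone H3 variant that marks centromeres, was at 453 and 475 units in control LT-HSCs and at 243 and 305 in knockout LT-HSCs. It was at 157 and 278 in control MPPs, 289 and 246 in knockout MPPs, 196, 221 and 286 in control myeloid progenitors and 214, 212 and 242 in knockout ones. Both LT-HSC control arrays lay above all others. The excess over myeloid progenitors was 0.98 ± 0.26 (limma adjusted p = 0.0369; 0.0615 with the litters as blocks). That over MPPs was 1.10 ± 0.28 (adjusted p = 0.0609). Leaving out either LT-HSC control array (adjusted p = 0.176 and 0.0784), any myeloid progenitor control array (0.134, 0.0753 and 0.0518) or any myeloid progenitor knockout array (0.0635, 0.0594 and 0.0622) took the adjusted p above the threshold, as did values without scaling between arrays (0.0538).

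Ube2c, the ubiquitin-conjugating enzyme of the anaphase promoting complex, was at 1002 and 1189 units in control LT-HSCs and at 688 and 921 in knockout LT-HSCs. In MPPs it was at 501 and 813 in controls and at 869.9 and 895 in knockouts, and in myeloid progenitors at 599, 524 and 769 and at 563, 650.3 and 625. The lowest LT-HSC control array was above the highest of the other arrays. The excess over myeloid progenitors was 0.86 ± 0.22 (limma adjusted p = 0.0353; 0.0529 with the litters as blocks). It too was lost without either LT-HSC control array (adjusted p = 0.162 and 0.0910), without myeloid progenitor control array 1 or 2 (0.111 and 0.0849) or without any myeloid progenitor knockout array (0.0582, 0.0543 and 0.0564), and with arrays unscaled, centred on the median or fitted with no trend (0.0762, 0.0592 and 0.0558).

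Other partners of the anaphase promoting complex did not pass. Cdc20, which activates the anaphase promoting complex, and Cdca3, one of its substrates, were 0.90 ± 0.31 and 1.10 ± 0.31 higher in control LT-HSCs than in MPPs. Pttg1, securin, was at 1736 and 1477 units in control LT-HSCs, 1130.3 and 1656 in knockout LT-HSCs, 913 and 974 in control MPPs and 1288 and 1251 in knockout MPPs. Myeloid progenitors had Pttg1 at 1007, 1685 and 1363 in controls and 903, 1475 and 1177 in knockouts, which overlap the LT-HSC values.

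Cdk1, the kinase itself, gave other values than its cyclin. It was at 619.9 and 856 units in control LT-HSCs, 393 and 821 in knockout LT-HSCs, 721 and 957 in control MPPs and 998 and 1145 in knockout MPPs. Myeloid progenitors had Cdk1 at 1026, 585 and 942 in controls and 877, 621 and 822 in knockouts. Its values overlapped between LT-HSCs and the other populations. It was the only gene of the 36 that was not higher in control LT-HSCs than in MPPs, at -0.18 ± 0.32, and stood at -0.13 ± 0.29 against myeloid progenitors.

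**Figure D4:**
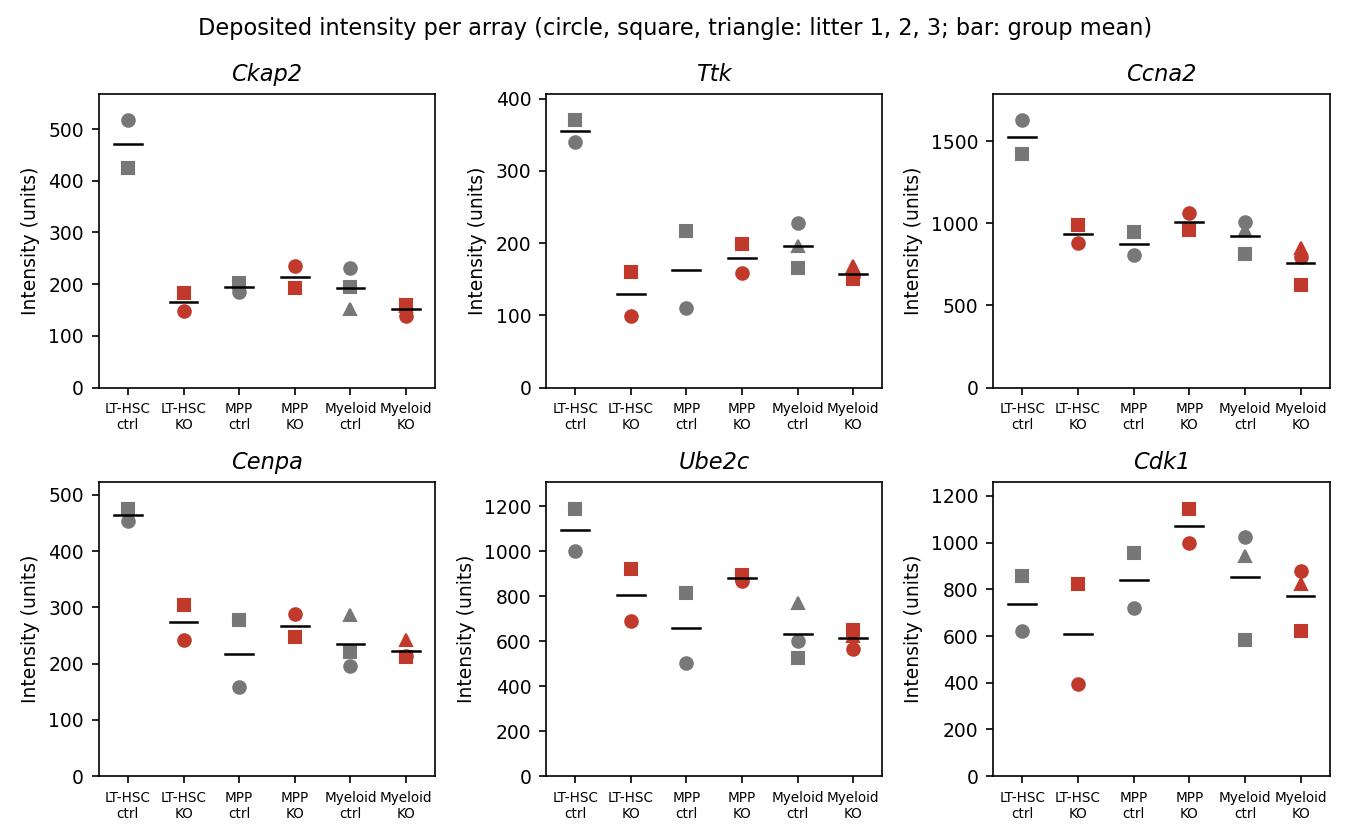
Deposited intensity (y axis, units, from 0) of 6 mitosis genes in the 6 groups (x axis), 1 point per array, with grey for control, red for knockout, the marker for the litter number and the bar for the group mean. For Ckap2, Ttk, Ccna2, Cenpa and Ube2c the 2 LT-HSC control arrays lie above the other 12, and for Cdk1 they do not.

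Control MPPs and control myeloid progenitors did not differ in a common direction. Of 36 genes 14 were higher in MPPs and 22 lower, with a median of -0.07 beside -0.02 for all genes. By limma 0 passed (0.0698% of all genes), 0 with the litters as blocks, and 1, Kif11, was higher at an unadjusted p under 0.05 (8.89% of all genes). The median was 0.20 without MPP control array 1 and -0.35 without MPP control array 2.

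Deletion of Dnmt1 left no mitosis gene past the threshold in LT-HSCs, although most were lower. Of 36 genes 32 were lower and 4, Aurka, Bub1, Kif2c and Nek2, higher, with a median of -0.30 beside 0 for all genes, of which 50.3% were lower. By limma 0 of 36 passed (0.0698% of all genes), and 0 passed with the litters as blocks, where 20 of all 8598 genes passed. At an unadjusted p under 0.05, 6 were lower (6.58% of all genes in either direction). With the blocks 10 had such a p in either direction, and no share of all genes is given for that fit. In 13 of 36 both knockout arrays lay below both control arrays, as in 12.1% of all genes. The median depended on single arrays. It was -0.04 without LT-HSC control array 1, -0.61 without LT-HSC control array 2 and -0.56 without LT-HSC knockout array 1. Between the arrays of a litter it was -0.50 in litter 1, with 32 genes lower, and -0.24 in litter 2, with 26 lower. In both litters 24 of 36 were lower, as were 26.3% of all genes. On the same arrays summed B cell markers were 13082 in control and 9698 in knockout of litter 1, and 6912 and 6129 in litter 2, with 6 of the 7 markers lower in knockouts. The 3 measured of 4 T and NK cell markers were higher in knockouts and summed to 113 in control and 341 in knockout of litter 1, and to 166 and 322 in litter 2. Il2rb, an interleukin receptor chain, had the smallest p of them (1.49 ± 0.37, limma adjusted p = 0.356). Mature granulocyte markers summed to 482 in control and 143 in knockout of litter 1, and to 1732 and 6285 in litter 2. The part of any of these lists in the result was not tested.

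The 6 genes with an unadjusted p under 0.05 were Ckap2, Ttk, Ccna2, Kif23, Kif11 and Cenpa. Ckap2 was lower by 1.65 and 1.13 on the log2 scale in litters 1 and 2. Its fitted difference was -1.39 ± 0.28 (limma adjusted p = 0.135; 0.0581 with the litters as blocks) and ran from -1.60 to -1.18 when 1 array was left out. Ttk, the checkpoint kinase that marks unattached kinetochores, was at 339.8 and 370.1 units in control LT-HSCs and at 98.6 and 160.3 in knockout LT-HSCs. In control MPPs it was at 110.0 and 216, in knockout MPPs at 158 and 199, and in myeloid progenitors at 228, 165 and 196 in controls and 154, 150.5 and 168 in knockouts. The knockout LT-HSC values thus overlapped those of the other populations, and the control LT-HSC values lay above all of them. Its difference in LT-HSCs was -1.35 ± 0.31 (limma adjusted p = 0.261; 0.0581 with the blocks). Ckap2 and Ttk have 1 probe set each.

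Among the kinesins, motors that move along microtubules, Kif11, which pushes spindle poles apart, was at 1021 and 885 units in control LT-HSCs and 550.4 and 650.3 in knockout LT-HSCs. In MPPs it was at 934 and 962 in controls and at 1074 and 872 in knockouts, and in myeloid progenitors at 838, 554 and 710.2 and at 698, 476 and 676. Its 2 knockout LT-HSC arrays lay below all 4 MPP arrays, with a difference from LT-HSC controls of -0.62 ± 0.25 (limma adjusted p = 0.642). Kif23, a motor of the central spindle, was at 617 and 361 in control LT-HSCs and 194 and 297 in knockout LT-HSCs (-0.89 ± 0.33, adjusted p = 0.592). In MPPs it was at 396 and 474 in controls and 344 and 264 in knockouts, and in myeloid progenitors at 439, 421 and 270.0 and at 229.8, 255 and 272. It was the gene with the smallest p in the average over the populations, at -0.60 ± 0.18 (limma adjusted p = 0.442). Another Kif23 probe set gave -0.21, 0.06 and -0.18 for LT-HSCs, MPPs and myeloid progenitors. Of the other kinesins Kif4 and Kif20a were at -0.55 and -0.24 and Kif2c, which takes microtubules apart, at 0.34 in LT-HSCs.

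In the spindle checkpoint group Mad2l1, which binds Cdc20, had little spread. It was at 569.7 and 573 units in control LT-HSCs, 476 and 461 in knockout LT-HSCs, 398 and 499 in control MPPs and 589 and 506 in knockout MPPs. Myeloid progenitors had Mad2l1 at 522, 572 and 472 in controls and 469, 571 and 506 in knockouts. Bub1, a kinase of the checkpoint, was at 196 and 233 in control LT-HSCs, 201 and 238 in knockout LT-HSCs, 144 and 194 in control MPPs and 239 and 184 in knockout MPPs. Its myeloid progenitor values were below all 4 LT-HSC values, at 127, 123 and 167 in controls and 117, 135 and 153 in knockouts. The difference of Bub1 in LT-HSCs was 0.08 ± 0.26, and its other probe set gave -0.86. Bub1b was at -0.31 ± 0.36.

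The mitotic kinases were the group that was not mostly lower in knockout LT-HSCs. Aurka, the Aurora kinase of the spindle poles, was at 197 and 219 units in control LT-HSCs, 225 and 299.6 in knockout LT-HSCs, 128 and 238 in control MPPs and 187 and 228 in knockout MPPs. In myeloid progenitors it was at 158, 180.1 and 234 in controls and 163, 218 and 223 in knockouts. Its difference in LT-HSCs, 0.36 ± 0.30, was the highest of the 36. Nek2 and Plk1 were at 0.22 ± 0.50 and -0.11 ± 0.73, and Plk1 spread from 44.9 to 478 units over the arrays.

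Of the chromosomal passenger complex, which corrects faulty attachments, Incenp was at 3108 and 2239 units in control LT-HSCs, 1983 and 1525 in knockout LT-HSCs, 1208 and 1834 in control MPPs and 1689 and 1535 in knockout MPPs. In myeloid progenitors it was at 1545, 2317 and 1524 in controls and 1348, 1849.9 and 1341 in knockouts. Its LT-HSC groups did not overlap in deposited units and overlapped after normalization (11.74 and 11.06 against 11.15 and 10.57 on the log2 scale; -0.54 ± 0.32). Aurkb, the kinase of the complex, was at 841 and 391 in control LT-HSCs, 676 and 424 in knockout LT-HSCs, 202 and 436 in control MPPs and 593 and 413 in knockout MPPs. In myeloid progenitors Aurkb was at 307, 489 and 367 in controls and 308, 409 and 323 in knockouts. Its LT-HSC groups overlapped (-0.06 ± 0.46), as did those of Birc5 (-0.17 ± 0.30), and the arrays of litter 1 were the higher ones in either genotype.

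All 5 centromere and kinetochore genes were lower in knockout LT-HSCs (median -0.43). Cenpa was at -0.69 ± 0.28 (limma adjusted p = 0.642). Cenpe, a kinetochore motor, was at 715 and 419 units in control LT-HSCs, 639.8 and 373 in knockout LT-HSCs, 299.9 and 471 in control MPPs and 414 and 397 in knockout MPPs. Myeloid progenitors had Cenpe at 421, 587 and 422 in controls and 321, 470.2 and 339 in knockouts. It followed the litter more than the genotype in LT-HSCs (-0.12 ± 0.39). Cenpf, Nuf2 and Ndc80 were at -0.43, -0.46 and -0.18.

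The spindle proteins other than Ckap2 were lower by smaller amounts. Tacc3, which stabilises spindle microtubules, was at 969 and 946 units in control LT-HSCs, 592 and 729 in knockout LT-HSCs, 653 and 1084 in control MPPs and 636 and 1113 in knockout MPPs. In myeloid progenitors it was at 1224, 772 and 1190.1 in controls and 757, 804 and 1213 in knockouts. Its LT-HSC groups did not overlap (-0.49 ± 0.31), while MPPs split by litter and not by genotype. Hmmr, a spindle assembly factor, was at 322 and 253 in control LT-HSCs, 243 and 205 in knockout LT-HSCs, 102 and 209 in control MPPs and 212 and 170.1 in knockout MPPs. In myeloid progenitors Hmmr was below all 4 LT-HSC arrays, at 113, 120.0 and 179 in controls and 108, 156 and 143 in knockouts. Tpx2, the activator of Aurora A, and Nusap1 were at -0.47 and -0.20 in LT-HSCs.

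Prc1, which bundles the midzone microtubules for cytokinesis, was at 616 and 285 units in control LT-HSCs, 382 and 360.3 in knockout LT-HSCs, 311 and 405 in control MPPs and 315 and 330.0 in knockout MPPs. In myeloid progenitors it was at 385, 362 and 344 in controls and 249, 312 and 244 in knockouts, where the groups did not overlap (-0.32 ± 0.28). Racgap1, another protein of the midzone, was at -1.02 ± 0.55 in LT-HSCs, with -2.39 in litter 1 and 0.36 in litter 2, and its other probe set gave 0.01. Mki67, the surface coat of mitotic chromosomes, was at 3907 and 3237 in control LT-HSCs, 3319 and 2496 in knockout LT-HSCs, 2348 and 2553 in control MPPs and 2805 and 2872 in knockout MPPs. In myeloid progenitors Mki67 was at 2038, 2864 and 2390.0 in controls and 1890.2, 2887 and 2448 in knockouts. It was lower in both LT-HSC litters and higher in both MPP litters.

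In MPPs most differences had the opposite sign, and none passed the test. Of 36 genes 28 were higher in knockouts and 8 lower, with a median of 0.21 beside 0 for all genes. By limma 0 passed (0.0698% of all genes), and 0 also with the litters as blocks, where 13 of all 8598 genes passed. An unadjusted p under 0.05 was found for 0 (2.64% of all genes), or for 4 with the blocks, for which no share is given. The median was 0.47 in litter 1, with 30 genes higher, and -0.03 in litter 2, with 10 higher and 25 lower. In both litters 8 of 36 were higher, as were 27.8% of all genes. Without MPP control array 1 the median was -0.08, and without MPP control array 2 it was 0.45. Aurkb was highest, at 0.74 ± 0.46, and Ube2c had the smallest p, at 0.44 ± 0.25 (limma adjusted p = 1.00). Knockout array 1, of the higher litter, also had the highest B cell marker sum among MPPs, 2483 units against 611 in its littermate control. Erythroid markers were higher in knockouts of both litters, with sums of 98 in control and 514 in knockout of litter 1 and 175 and 595 in litter 2. Car1, the carbonic anhydrase of erythroid cells, made up most of the sum on 3 of the 4 arrays (2.46 ± 0.51, limma adjusted p = 0.257), and Hba-a1, a globin gene, was dim on all 14 arrays (1.00 to 9.23 units). Klf1 and Gata1, erythroid transcription factors, were at 2.24 ± 0.64 and 1.62 ± 0.52 (adjusted p = 1.00 for each). The part of these markers in the result was not tested.

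In myeloid progenitors, with 3 litters, the median difference was near 0. Of 36 genes 12 were higher and 24 lower, with a median of -0.07 beside -0.02 for all genes, of which 54.2% were lower. By limma 0 passed (0.0930% of all genes), and 0 with the litters as blocks, where 13 of all 8598 genes passed. An unadjusted p under 0.05 was found for 0 (1.00% of all genes), or for 1 with the blocks, for which no share is given. With arrays unscaled or centred on the median 33 or 31 of the 36 were lower, where the median of all genes was itself -0.05 or -0.04. Litter medians were -0.15, -0.04 and -0.04, and 10 genes were lower in all 3 litters (14.2% of all genes) and 1 was higher. Plk1, the polo kinase of mitotic entry, had the lowest difference, at -0.67 ± 0.60, with -0.89, -0.39 and -0.72 in the litters. Averaged over the populations 24 of 36 were lower, with a median of -0.06. By limma 0 passed (0.233% of all genes), and 0 with the blocks, where 70 of all 8598 genes passed. At an unadjusted p under 0.05, 3 were lower (6.04% of all genes in either direction). With the blocks 7 had such a p in either direction, and no share is given. Of the 36 genes 0 were lower and 0 higher in all 7 litters.

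**Figure D5:**
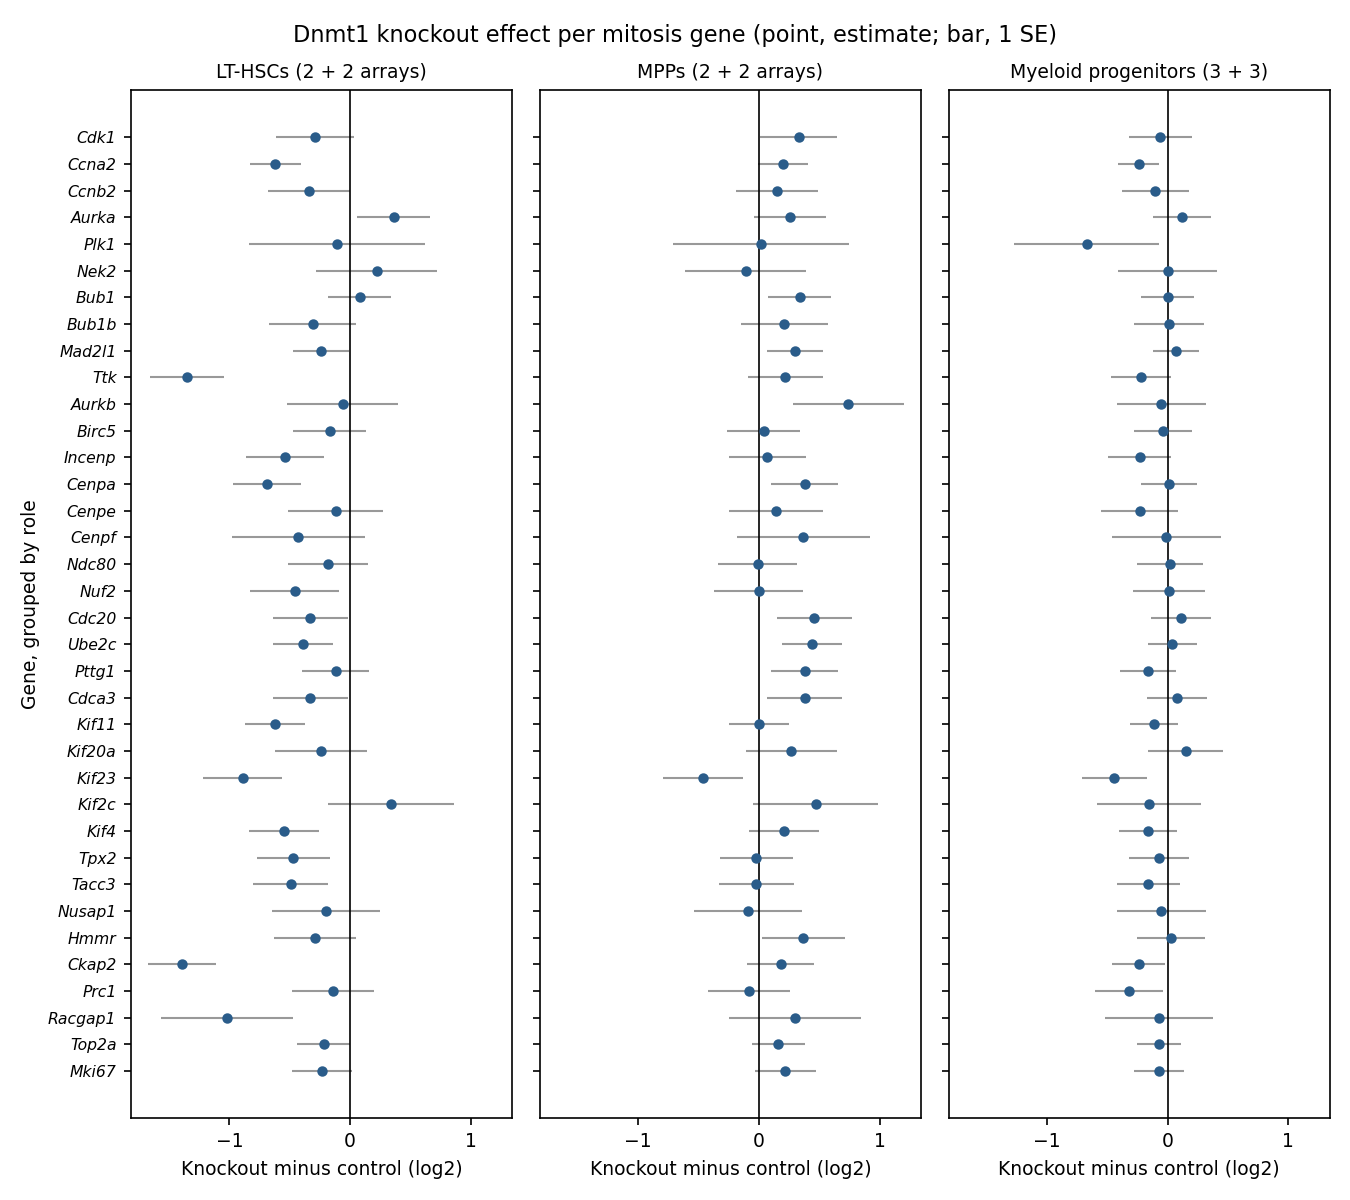
Knockout minus control (x axis, log2(intensity + 16) scale) of 36 mitosis genes (y axis, grouped by role) in LT-HSCs, MPPs and myeloid progenitors, with bars of 1 SE from the limma fit. Most points lie left of 0 in LT-HSCs (32 of 36) and right of 0 in MPPs (28 of 36), and in myeloid progenitors they lie near 0 (median -0.07).

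The knockout effects were compared between populations as interaction terms. LT-HSCs minus MPPs was negative for 34 of 36 genes, with a median of -0.51 beside 0 for all genes. By limma 0 passed with or without the litters as blocks (0% of all genes). An unadjusted p under 0.05 was found for 5, all negative (3.01% of all genes), or for 11 with the blocks, for which no share is given. Ckap2 was lowest, at -1.57 ± 0.39, followed by Ttk at -1.56 ± 0.44 (adjusted p = 1.00 for each). The median was -0.26 without LT-HSC control array 1 or without MPP control array 1. It was -0.85, -0.74 and -0.82 without LT-HSC control array 2, LT-HSC knockout array 1 and MPP control array 2. Cdc20, Cdca3, Mad2l1, Mki67 and Ube2c were lower in both LT-HSC litters and higher in both MPP litters. In MPP litter 2 their differences were 0.27, 0.01, 0.02, 0.11 and 0.08. Of all genes 26.3% were lower in both LT-HSC litters and 27.8% higher in both MPP litters, and the share with both is not given.

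LT-HSCs minus myeloid progenitors was negative for 28 of 36, with a median of -0.31. By limma 0 passed with or without blocks (0% of all genes). An unadjusted p under 0.05 was found for 2 (2.62% of all genes), or for 3 with the blocks, for which no share is given. The median was 0.03 without LT-HSC control array 1 and -0.56 without LT-HSC control array 2. MPPs minus myeloid progenitors was positive for 31 of 36, with a median of 0.30. By limma 0 passed with or without blocks (0% of all genes). An unadjusted p under 0.05 was found for 0 (0.500% of all genes), or for 2 with the blocks, for which no share is given. This median was 0.00 without MPP control array 1 and 0.56 without MPP control array 2. The terms share arrays with each other and with the comparisons of single populations.

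Among knockout arrays the LT-HSC differences had smaller medians than among controls, and MPPs lay further from myeloid progenitors (median 0.18 against -0.07). Knockout LT-HSCs were higher than knockout MPPs in 22 of 36 genes, with a median of 0.09. By limma 0 passed (0.477% of all genes), and 0 with the blocks, where 42 of all 8598 genes passed. At an unadjusted p under 0.05, 2, Cdk1 and Kif11, were lower (10.2% of all genes). With the blocks 3 had such a p, and no share is given. Against knockout myeloid progenitors 29 of 36 were higher, with a median of 0.36. By limma 0 passed (3.73% of all genes), and 0 with the blocks, where 338 of all 8598 genes passed. At an unadjusted p under 0.05, 2, Bub1 and Hmmr, were higher (17.9% of all genes). With the blocks 2 had such a p, and no share is given. Other probe sets gave other values, -0.58 for Bub1 against 0.66, and 0.18, 0.14 and -0.63 for Hmmr against 0.69. Without LT-HSC knockout array 1 that median was 0.11, and without LT-HSC knockout array 2, 2 genes passed. Knockout MPPs were higher than knockout myeloid progenitors in 31 of 36. By limma 0 passed (0% of all genes), and 0 with the blocks, where 1 of all 8598 genes passed. At an unadjusted p under 0.05, 3 were higher (5.62% of all genes). With the blocks 2 had such a p, and no share is given.

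Genes with and without TTTGAA in the promoter window are set side by side as a description. Among the 31 genes both measured and in the promoter table, the 22 with TTTGAA had a median of -0.33 for knockout minus control in LT-HSCs and the 9 without it -0.17. For control LT-HSCs minus MPPs the medians were 0.52 and 0.48. In knockout minus control in MPPs they were 0.22 and 0.04.

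Other cell cycle genes were described for comparison. Of 37 measured further mitosis genes 32 were lower in knockout LT-HSCs (median -0.27), 0 past the threshold by limma (3 lower at an unadjusted p under 0.05, which 6.58% of all genes had in either direction), and 32 were higher in control LT-HSCs than in MPPs, with a median of 0.38. Against myeloid progenitors 31 of the 37 were higher in control LT-HSCs, with a median of 0.29. The threshold was passed by 3, where 6.35% of all genes passed in either direction. These were Aspm at 1.24 ± 0.23 and Ckap5 at 1.36 ± 0.28, which act at spindle poles and microtubules, and Cdc25b, a phosphatase that activates Cdk1, at 1.40 ± 0.34 (limma adjusted p = 0.00626, 0.0103 and 0.0263). DNA replication genes had a median of 0.03 for knockout minus control in LT-HSCs (13 of 24 higher, 0 past the threshold by limma, 1 at an unadjusted p under 0.05) and of 0.10 for control LT-HSCs minus MPPs. In knockout MPPs 19 of 24 were higher, with a median of 0.17 beside 0.21 for the mitosis genes, and 0 passed by limma (0 at an unadjusted p under 0.05). Of 15 genes that regulate transcription of mitosis genes, 13 were higher in control LT-HSCs than in MPPs (median 0.59, 0 past the threshold by limma). In knockout LT-HSCs 7 were higher and 8 lower (median -0.06). The lowest p was that of Nfya, an NF-Y subunit, at -0.58 ± 0.25 (limma adjusted p = 0.711). Of 9 G1 and S phase cyclins and kinases 5 were higher in control LT-HSCs than in MPPs, and 1, Ccnd3, passed (2.14 ± 0.35, limma adjusted p = 0.00817). Of 5 measured cell cycle inhibitors 5 were higher in control LT-HSCs than in myeloid progenitors. Cdkn1a and Cdkn2d passed, at 1.87 ± 0.29 and 1.02 ± 0.26 (limma adjusted p = 0.00206 and 0.0310). In knockout against control LT-HSCs 0 of either list passed.

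Other probe sets of the same genes mostly gave the same direction. Of the 36 genes 18 had more than 1 probe set, and 25 of the 29 others passed the filter. Of these 25, 23 were lower in knockout LT-HSCs and 24 higher in control LT-HSCs than in MPPs. The sign differed from that of the probe set used in 6 for the first comparison and in 1 for the second. For Ccna2 the other probe set gave -0.06 in knockout LT-HSCs, against -0.62, and 0.80 in control LT-HSCs against MPPs. For Kif2c the others gave -0.59, -1.06 and -0.37 against 0.34. The probe sets of 6 genes are of a kind that may also bind other transcripts.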

How the data were processed

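Amplified RNA from the sorted cells was hybridised to 14 Affymetrix arrays, 1 per sample, per the labels' protocols. Each deposited value is the linear intensity of 1 probe set on 1 array; its summarisation and scaling are not given in the sources used here. Of 22690 probe sets 64 were controls, 20380 had 1 gene symbol in the platform annotation, 691 several and 1555 none. Values were taken as log2(intensity + 16), which understates changes of dim genes, and quantile normalized. Genes were kept where the probe set with the highest mean lay above the 40th percentile on 2 or more arrays.

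Every comparison is a contrast of 6 group means in a fit to 14 arrays (limma 3.58.1 in R 4.3.3, mean-variance trend, 8 residual degrees of freedom). Python 3.11.15 served for promoters and figures. P-values are two-sided, adjusted by Benjamini-Hochberg over 8598 genes, with a threshold of 0.05. The fitting code was tested on simulated data, with 100 genes changed by 2 and 100 by 4 on the log2 scale in knockout LT-HSCs. Of these 86.0% and 100% were called in the right direction, and 7.92% of all calls were false, above the threshold of 0.05. Smaller changes were not simulated. With 2 or 3 arrays per group, precision is limited by that number; the median SE was 0.35 in LT-HSCs and MPPs and 0.29 in myeloid progenitors.

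The labels say that arrays with the same replicate number are from littermates. Deviations from group means correlated within these pairs (r = 0.46 for LT-HSCs, 0.59 for MPPs, and 0.20, 0.54 and 0.61 for the 3 myeloid progenitor litters). Litters were a fixed block for genotype effects (4 residual degrees of freedom) and a random block (correlation 0.503) between populations. Percentages of all genes with a p under a threshold come from the fit without blocks.

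Members and lists were chosen with earlier results of these data known. Values on every array are given for members past the threshold, the brightest member of each role and the 2 with the smallest p per comparison. Racgap1, Plk1 and Birc5 values were singled out after their values were seen. Alternatives were the pseudocount, scaling, filter, probe set summary, trend, litter block and each array left out.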

Additional observations from a re-analysis of the deposited data

Results flagged for a closer look

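Ube2c, the ubiquitin-conjugating enzyme of the anaphase promoting complex, had knockout effects of opposite sign in every litter of LT-HSCs (-0.49 and -0.29) and of MPPs (0.80 and 0.08). The difference between the effects was -0.83 and did not pass the test (limma interaction, adjusted p = 1.00). Ube2c was 1 of 5 mitosis genes with this order of signs, and the share of all genes with it is not given.

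Pttg1, securin, was higher in knockouts of both MPP litters (0.47 and 0.29) and lower in all 3 myeloid progenitor litters (-0.03, -0.22 and -0.22). That difference was 0.54 and did not pass either (limma interaction, adjusted p = 1.00), and here too the share of all genes is not given. Of its other probe sets 1 gave 0.11 in MPPs and 0.25 in myeloid progenitors, which turns the sign of the difference, and 1 gave 0.46 and -0.06.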

How the results depend on the processing

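The 24 alternatives left 22 of 28 gene results on the same side of the threshold with the same direction, and none changed sign of a called value; the other 6 concern the control LT-HSC comparisons. Genes passing in control LT-HSCs against MPPs (1) became 2 with the mean of probe sets and 0 with the replicate block of litters, and against myeloid progenitors (4) became 2 with values as deposited, median centring, no trend or the replicate block. The block changed no other call of a mitosis gene. Without both arrays of LT-HSC litter 1, an alternative chosen after seeing the data, these counts were 0 and 0, with medians of 0.29 and 0.14, and knockout LT-HSCs against myeloid progenitors had 0.11. With 1 array left out the counts ran from 0 to 2, 0 to 4 and, for knockout LT-HSCs against myeloid progenitors, 0 to 2.

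Median differences with 1 array left out ran from -0.61 to -0.04 for knockout minus control in LT-HSCs and from -0.08 to 0.45 in MPPs. They ran from -0.85 to -0.26, -0.56 to 0.03 and 0.00 to 0.56 for the interactions of LT-HSCs with MPPs, of LT-HSCs with myeloid progenitors and of MPPs with myeloid progenitors. Among controls they ran from 0.29 to 1.00, 0.14 to 0.85 and -0.35 to 0.20 for LT-HSCs against MPPs, LT-HSCs against myeloid progenitors and MPPs against myeloid progenitors, and from 0.11 to 0.39 for knockout LT-HSCs against myeloid progenitors. Beyond the arrays named in each setting the cause was not tested. With 2 arrays per group, 1 array left out leaves a lone array assumed to vary like the other groups. No scaling moved the median of all genes by over 0.1.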
